A study of Mus musculus with 6 samples.

Results

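The genes described here are 10 members of the fibroblast growth factor (FGF) system, of 43548 gene identifiers in all. They are the secreted FGF-binding proteins Fgfbp1 and Fgfbp3, the receptors Fgfr1, Fgfr2, Fgfr3, Fgfr4 and Fgfrl1, and the ligands Fgf1, Fgf2 and Fgf7. They were picked from the comparison of cells with and without Dox because Fgfbp1 was among the largest increases in it, so their differences are given as a description and without a test. Each member had 1 row in the table.

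Met-1 is a mouse mammary carcinoma line grown out of an advanced tumor of the MMTV-PyMT model on the FVB/NJ strain. The TripZ-200c cells made from it hold a lentiviral pTripZ vector that makes the precursor of miR-200c, together with a red fluorescent reporter, when doxycycline (Dox) is added. They are 1 clone, sorted to be free of reporter without Dox and to show an intermediate level of it with Dox. Cells of both groups carried this vector and, by the labels and the methods, were grown for 48 h either in 1 µg/mL Dox (Plus Dox) or in the vehicle, water (Minus Dox). A figure legend of the study refers the sequencing to samples treated for 72 h. There were 3 libraries per group, from cells plated in triplicate, so p-values measure the spread between cultures of 1 clone. No Dox-treated cells with an empty vector were analysed here, and an effect of Dox itself and an effect of miR-200c cannot be told apart.

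FGFs are secreted growth factors that bind receptor tyrosine kinases on the cell surface, with heparan sulfate as a cofactor that holds ligand and receptor together. Binding proteins such as the product of Fgfbp1 release FGFs that are stored on heparan sulfate in the matrix. Activated receptors signal through the adaptor FRS2 to the RAS-ERK and PI3K pathways, and ERK signaling switches on its own inhibitors of the Sprouty and DUSP families. In the mammary gland, FGF signaling takes part in branching of the epithelium, and mesenchymal cells and epithelial cells use different splice forms of the receptors. MiR-200c is a microRNA of epithelial cells that represses the transcription factors ZEB1 and ZEB2.

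The mature miR-200c-3p is shown because its seed defines the matches searched for in the members' transcripts. It lies at chr6:124718324-124718346 on the minus strand (GRCm38.p6, RefSeq), and the capitals mark its seed, bases 2 to 8.
mmu-miR-200c-3p: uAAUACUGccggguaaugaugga
The 7 bases that pair with this seed, CAGTATT, were searched for in the longest annotated 3′ UTR of each gene. Among the members, only those of Fgf2 and Fgfr2 held a match, with 1 each. The site of Fgf2, chr3:37408316-37408345 on the plus strand, and that of Fgfr2, chr7:130164079-130164108 on the minus strand (GRCm38), are printed with the match in capitals.
Fgf2: ccacataggtaacggCAGTATTgaaagaca
Fgfr2: acccagcctctcgaaCAGTATTctcctagt
The 3′ UTR of Fgf2 is 5311 bases long and that of Fgfr2 is 2820, against a median of 1386 over the 10806 protein-coding genes tested that have one. Of those genes, 1823 (16.9%) held at least 1 match. The 3′ UTR of Fgfbp1, 335 bases long, held 0. A match is a stretch of letters and does not show that a transcript is bound.

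Expression is given as FPKM, fragments scaled to transcript length and to the mapped reads of the library, from which read numbers cannot be recovered. FPKM sums were alike in the 6 libraries (800267 to 815139). The depth of each library relative to the first Minus Dox library, estimated from the steps between its lowest values, was 0.921 and 1.31 in the other Minus Dox libraries and 0.97, 1.49 and 1.12 in the Plus Dox libraries. All 37 mitochondrial genes were listed at 0, so a gene listed at 0 may still be expressed. Fold changes are differences on the log2(FPKM + 0.1) scale, Plus Dox minus Minus Dox, which understates the change of low genes.

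The labels were checked with genes known to move with miR-200c. Zeb1 was at 41.0, 42.1 and 42.3 FPKM in the Minus Dox libraries and at 19.8, 20.3 and 23.6 FPKM in the Plus Dox libraries. Zeb2 went from 27.9 to 30.7 FPKM without Dox to 7.82 to 9.04 FPKM with Dox. Both transcription factors were lower in every Plus Dox library than in any Minus Dox library (log2 difference -0.98 with limma adjusted p = 0.000362, and -1.81 with limma adjusted p = 4.48e-05). The row of the miR-200c gene itself was listed at 0 in all 6 libraries.

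Of the 10 members, 1 stood far from the rest. Fgfbp1 was 13.4 times as abundant with Dox as without it, Fgfr3, Fgfrl1, Fgfr1 and Fgfbp3 were lower in every Plus Dox library than in any Minus Dox library, and in the other 5 the libraries of the groups overlap. Over the 10 members the median log2 difference was -0.24, against 0.0039 over all genes tested. The filter on low values, a mean of at least 1 FPKM, was passed by 6 members (Fgfbp1, Fgfbp3, Fgfr1, Fgfr3, Fgfrl1 and Fgf1), and the other 4 (Fgfr2, Fgfr4, Fgf2 and Fgf7) were under it.

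**Figure D1:**
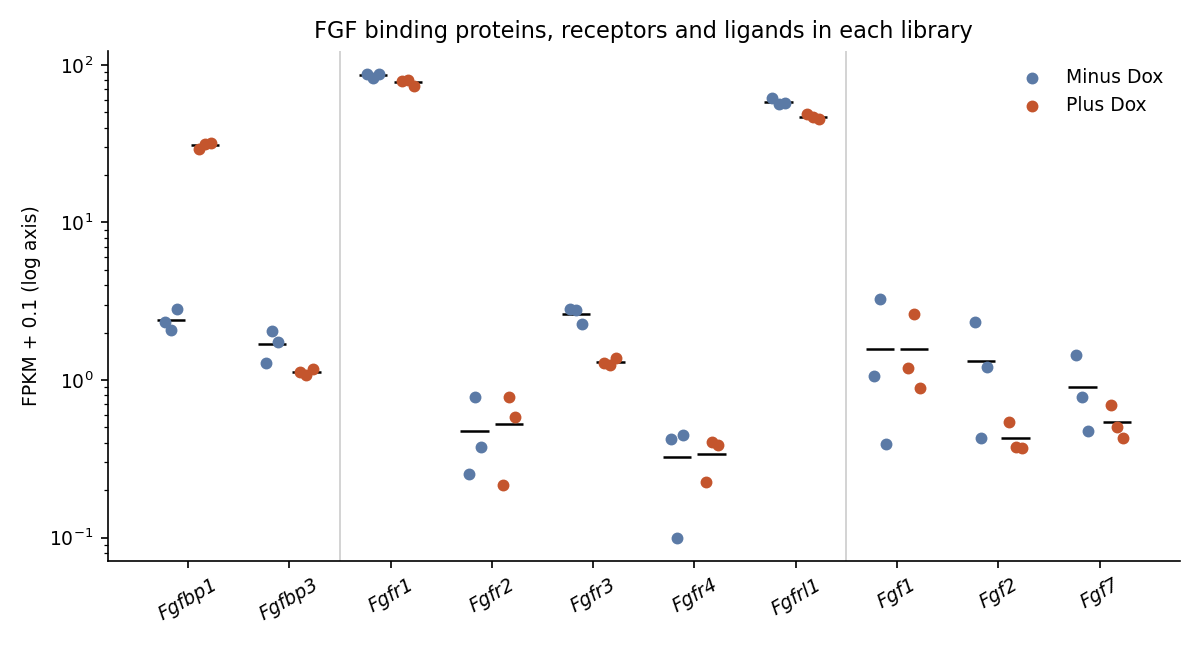
FPKM of the 10 members in each of the 6 libraries, with 0.1 added, on a log axis. Points are libraries, bars are group means, and the vertical lines separate binding proteins, receptors and ligands. Fgfbp1 lies between 1.98 and 2.72 FPKM without Dox and between 29.3 and 31.9 FPKM with Dox.

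Fgfbp1 (ENSMUSG00000048373) encodes a secreted protein that binds FGFs and carries them away from the matrix. The gene lies on the minus strand at chr5:43978858-43981779 (GRCm38). It was at 2.22, 1.98 and 2.72 FPKM in the Minus Dox libraries and at 29.3, 31.3 and 31.9 FPKM in the Plus Dox libraries. The groups lie far apart, and within each group the libraries are close to each other. The means were 2.30 ± 0.377 and 30.9 ± 1.37 FPKM (SD, n = 3 each), a ratio of 13.4. The log2 difference was 3.70 (standard error 0.12, 95% interval 3.40 to 3.99). By log2 difference it ranked 9 of 12879 genes, the largest increase first, a rank that describes how it was picked. The order depends on the pseudocount for genes near 0, and Crb3 and Gm15065, ahead of it, were listed at 0 in all Minus Dox libraries.

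The promoter of Fgfbp1 is shown because the gene had the largest difference of the members. It is the window from 250 bases before to 50 bases after the start given by RefSeq, at chr5:43981750-43982049 on the minus strand (GRCm38.p6), with motif matches in capitals.
Fgfbp1 promoter: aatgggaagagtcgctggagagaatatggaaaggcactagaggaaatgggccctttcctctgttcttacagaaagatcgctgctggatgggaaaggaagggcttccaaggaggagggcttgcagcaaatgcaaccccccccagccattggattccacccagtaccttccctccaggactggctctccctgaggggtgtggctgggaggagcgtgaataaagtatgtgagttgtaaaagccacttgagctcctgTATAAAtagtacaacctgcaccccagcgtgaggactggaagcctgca
The motifs searched for were the E-box CACCTG, which ZEB factors bind, the AP-1 motif TGACTCA and the GC box GGGCGG on both strands, and the TATA box TATAAA on the strand of the gene. Only TATAAA was found in the window, beginning 3 bases past the RefSeq start and 17 bases before the start that GENCODE M21 gives. TATAAA is held by 8.32% of the 32851 promoters in the table. The E-box was held by 20.2%, the AP-1 motif by 5.20% and the GC box by 35.7%. The table holds promoters of 8 members, and none of the 8 held the E-box or the AP-1 motif. The GC box occurred in those of Fgfr3, Fgfr4, Fgfrl1 and Fgf2. A motif that is not in this window may lie outside it, and nothing follows from it about a factor.

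Fgfbp3 (ENSMUSG00000047632, chr19:36917550-36919615 on the minus strand) encodes another FGF-binding protein, which is also secreted. It was at 1.19, 1.95 and 1.64 FPKM in Minus Dox and at 1.02, 0.969 and 1.07 FPKM in Plus Dox libraries. The groups do not overlap, but the lowest Minus Dox library lies near the highest Plus Dox library. The log2 difference was -0.57 with a 95% interval of -1.25 to 0.11. On log2(FPKM + 1) the difference was -0.35. Fgfbp1 was 1.01 to 1.87 times Fgfbp3 per library without Dox and 28.6 to 32.3 times with Dox, on the FPKM scale, which is per length.

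Fgfr1 (ENSMUSG00000031565, chr8:25513654-25575718 on the plus strand) encodes a tyrosine kinase receptor that is prominent in mesenchymal cells, and it was the most abundant member. It was at 86.9, 82.2 and 87.4 FPKM in Minus Dox and at 78.3, 80.3 and 73.3 FPKM in Plus Dox libraries. Every Plus Dox library lay below every Minus Dox library, by a small margin. The log2 difference was -0.15 (95% interval -0.26 to -0.03), from 85.5 ± 2.84 to 77.3 ± 3.63 FPKM (SD, n = 3 each).

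Fgfr3 (ENSMUSG00000054252, chr5:33721674-33737068 on the plus strand) encodes another receptor tyrosine kinase of the family. It was at 2.73, 2.69 and 2.18 FPKM in Minus Dox and at 1.19, 1.15 and 1.28 FPKM in Plus Dox libraries. The Plus Dox libraries were close together and below all Minus Dox libraries. The means were 2.53 ± 0.311 and 1.21 ± 0.0694 FPKM (SD, n = 3 each), a ratio of 0.476, and the log2 difference was -1.01 (95% interval -1.51 to -0.50). On log2(FPKM + 1) the difference was -0.68. Exons of Fgfr3 share 998 bases, 13.9% of its exon length, with G630022F23Rik on the opposite strand, so part of its value is uncertain.

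Fgfrl1 (ENSMUSG00000008090, chr5:108692382-108706924 on the plus strand) encodes a receptor that binds FGFs but lacks the kinase domain. It was at 61.5, 55.9 and 57.3 FPKM in Minus Dox and at 48.4, 46.8 and 45.0 FPKM in Plus Dox libraries. All Plus Dox libraries lay below all Minus Dox libraries. The means were 58.2 ± 2.93 and 46.8 ± 1.71 FPKM (SD, n = 3 each), and the log2 difference was -0.32 (95% interval -0.44 to -0.19). Fgfrl1 was 0.655 to 0.708 times Fgfr1 per library without Dox and 0.583 to 0.618 times with Dox.

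Fgfr2 and Fgfr4, which encode the other 2 kinase receptors, were low. Fgfr2 (ENSMUSG00000030849, chr7:130162451-133123350 on the minus strand) was at 0.153, 0.685 and 0.277 FPKM in Minus Dox and at 0.115, 0.676 and 0.479 FPKM in Plus Dox libraries. Fgfr4 (ENSMUSG00000005320, chr13:55152640-55168759 on the plus strand) was at 0.322, 0 and 0.350 FPKM in Minus Dox and at 0.125, 0.302 and 0.286 FPKM in Plus Dox libraries. For both genes the groups overlap. Their log2 differences from the fit without the filter, 0.12 (95% interval -1.45 to 1.70) and 0.29 (-1.30 to 1.89), changed sign when single libraries were left out. That of Fgfr2 was -0.24 without Minus Dox 1, -0.26 without Plus Dox 2 and -0.04 without Plus Dox 3, and reached 0.57 without Minus Dox 2 and 0.67 without Plus Dox 1. That of Fgfr4 was -0.41 without Minus Dox 2 and 0.14 to 0.67 without any 1 other library. On log2(FPKM + 1) the differences of Fgfr2 and Fgfr4 were 0.05 and 0.03. With a pseudocount of 0.01, that of Fgfr4 was 1.13. As annotated in GENCODE M21, Fgfr2 shares 314 exon bases on the same strand with Ctbp2, which was at 86.4 to 91.2 FPKM, so low values of Fgfr2 are uncertain.

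**Figure D2:**
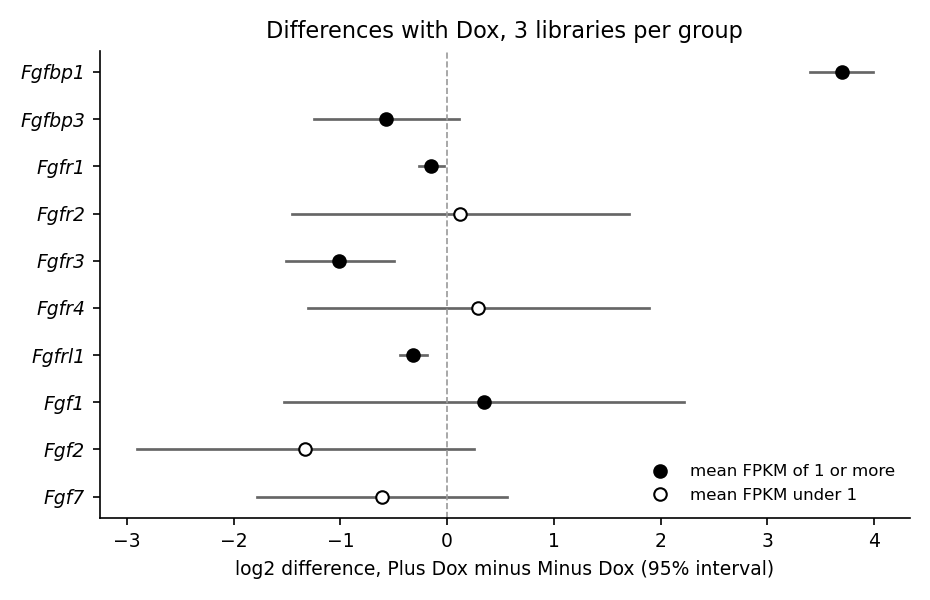
Log2 difference of each member, Plus Dox minus Minus Dox, on the log2(FPKM + 0.1) scale, with its 95% interval from limma (3 libraries per group). Filled points are members with a mean of at least 1 FPKM, open points those under it. The interval of Fgfbp1 runs from 3.40 to 3.99.

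Fgfr1 made up most of the receptor transcripts. Of the summed FPKM of the 4 kinase receptors, Fgfr1 took 96.4%, 96.1% and 96.9% without Dox and 98.2%, 97.4% and 97.3% with Dox. Fgfr3 took 3.03%, 3.15% and 2.41% without Dox and 1.49%, 1.39% and 1.70% with Dox. For both receptors the shares of the groups do not overlap, that of Fgfr3 being lower with Dox by 1.33 percentage points on average (difference -1.33, pooled SD 0.301). The shares of Fgfr2 and Fgfr4 were at most 0.820% and 0.388% in any library, and their groups overlap. The summed FPKM was 85.6 to 90.2 without Dox and 75.3 to 82.4 with Dox. FPKM of a gene does not tell its splice forms apart, and the forms of Fgfr1 and Fgfr2 that differ in ligand preference were not measured.

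**Figure D3:**
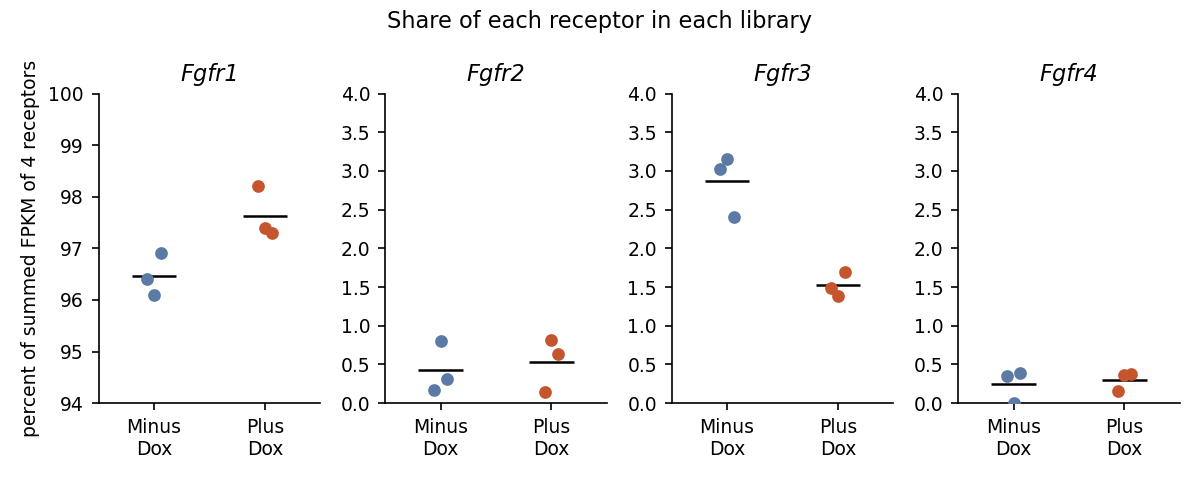
Share of each kinase receptor gene in the summed FPKM of Fgfr1, Fgfr2, Fgfr3 and Fgfr4, in percent, for each library (points) with group means (bars). The axis of Fgfr1 does not start at 0. Fgfr3 lies at 2.41% to 3.15% without Dox and at 1.39% to 1.70% with Dox.

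The ligands were low and variable. Fgf1 (ENSMUSG00000036585, on chromosome 18) encodes a ligand that can bind all kinase receptors of the family. It was at 0.962, 3.16 and 0.291 FPKM in Minus Dox and at 1.10, 2.53 and 0.787 FPKM in Plus Dox libraries. The groups overlap completely, and the second library was the highest of its group in both. The log2 difference of 0.35 (95% interval -1.53 to 2.22) was -0.40 without Minus Dox 3 and -0.10 without Plus Dox 2, and 1.13 without Minus Dox 2 and 0.68 without Plus Dox 3. On log2(FPKM + 1) it was 0.11, and the mean of each group was 1.47 FPKM.

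Fgf2 (ENSMUSG00000037225, chr3:37348346-37410108 on the plus strand) encodes basic FGF, which is released by Fgfbp1. It was at 2.24, 0.327 and 1.11 FPKM in Minus Dox and at 0.445, 0.278 and 0.270 FPKM in Plus Dox libraries. Plus Dox libraries were at the low end, but 1 Minus Dox library lay among them. The log2 difference from the fit without the filter was -1.33 with a 95% interval of -2.91 to 0.25. It was -0.76 without Minus Dox 1, -1.99 without Minus Dox 2 and -0.65 on log2(FPKM + 1). Exons of Fgf2 share 640 bases, 9.44% of its exon length, with Nudt6 on the opposite strand, which was at 8.06 to 12.8 FPKM. Since it is not known whether counting used strand, the values of Fgf2 are uncertain.

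Fgf7 (ENSMUSG00000027208, chr2:126034658-126091185 on the plus strand) encodes keratinocyte growth factor, a ligand of stromal cells for the epithelial form of FGFR2. It was at 1.33, 0.686 and 0.375 FPKM in Minus Dox and at 0.598, 0.401 and 0.331 FPKM in Plus Dox libraries. The groups overlap, and the log2 difference from the fit without the filter was -0.61 (95% interval -1.78 to 0.56). It was -0.20 without Minus Dox 1, -1.0 without Minus Dox 3 and -0.29 on log2(FPKM + 1).

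In order of mean FPKM without Dox, Fgfr1 was followed by Fgfrl1, Fgfr3, Fgfbp1, Fgfbp3, Fgf1, Fgf2, Fgf7, Fgfr2 and Fgfr4. Only Fgfr1, Fgfrl1 and Fgfbp1 did not overlap with the member next below them. With Dox, Fgfbp1 stood directly below Fgfrl1, above Fgf1, Fgfr3, Fgfbp3, Fgf7, Fgfr2, Fgf2 and Fgfr4. Fgfr1, Fgfrl1, Fgfbp1, Fgfr3 and Fgfbp3 did not overlap there with the member next below, while the others did.

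The libraries of the groups did not overlap in 5 of the 10 members (Fgfbp1, Fgfbp3, Fgfr1, Fgfr3 and Fgfrl1), and over all 12875 genes tested with 6 values in 35.0%. That share is over genes that passed the filter, and these 5 are among the 6 members that passed it. The members were chosen from this comparison, so the count is a description and no call is given for them.

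Over all 12879 genes tested, 1935 (15.0%) passed the test (limma adjusted p under 0.05), 7.06% as higher and 7.97% as lower. The genes around the receptors were taken from 9 lists of 128 genes in all. Of the 86 that passed the filter, 10 were higher and 22 lower with Dox (limma adjusted p under 0.05), 37.2% of those tested against 15.0% of all genes. The median log2 difference over these 86 was -0.06, against 0.0039 over all genes tested. The lists were drawn up by role with earlier results known, and whether the share of called genes depends on expression level was not tested.

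**Figure D4:**
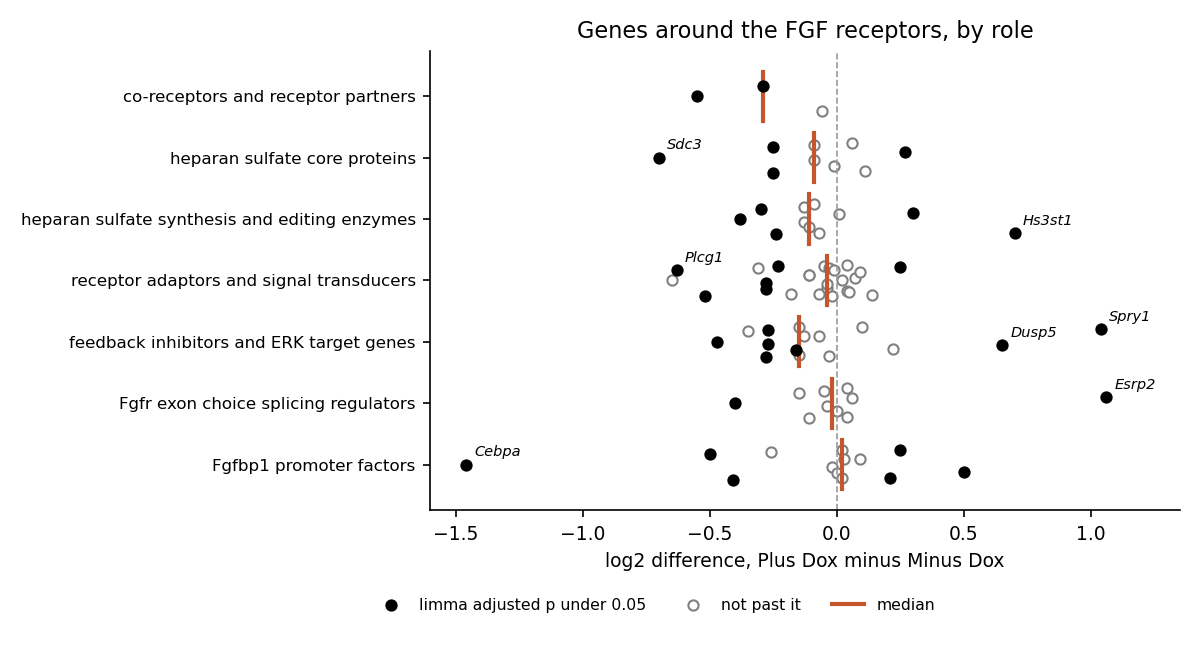
Log2 difference, Plus Dox minus Minus Dox, of each listed gene that passed the filter, by list. Filled points passed the limma test over all genes, open points did not, and the vertical bar is the median of the list. Spry1 (1.04), Esrp2 (1.06) and Cebpa (-1.46) lie farthest from 0.

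The other secreted ligands were nearly absent from the table's values. None of the 15 passed the filter, and 8 were listed at 0 in all libraries. Fgf21, an endocrine FGF, had the highest mean and was at 0.108, 0.236 and 0.582 FPKM in Minus Dox and at 0.449, 0.509 and 0.977 FPKM in Plus Dox libraries, with overlapping groups. Fgf20, next in order, was above 0 in 3 libraries, at most at 0.910 FPKM. The 4 intracellular FGF homologous factors, which do not act through the receptors, were at most at 0.0898 FPKM (Fgf11).

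Of the 9 co-receptors and receptor partners, 3 were tested and 2 were lower. Flrt3, a membrane protein that binds FGF receptors, was at 12.6, 14.4 and 13.0 FPKM in Minus Dox and at 8.89, 9.14 and 9.13 FPKM in Plus Dox libraries. Its libraries lay apart, and the log2 difference was -0.55 (limma adjusted p = 0.00485). Ncam1, a neural cell adhesion molecule that binds the receptors, was at 33.4 to 33.7 FPKM in Minus Dox and at 26.6 to 28.6 FPKM in Plus Dox libraries (log2 difference -0.29, limma adjusted p = 0.01). Klb and Kl, co-receptors of the endocrine FGFs, were at most at 0.118 and 0.0317 FPKM.

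Among the heparan sulfate core proteins, which carry the chains that FGFs bind, 9 of 12 were tested, 1 was higher and 3 were lower. They were the 4 syndecans, membrane-bound carriers of the chains. Sdc3 was at 151, 154 and 126 FPKM in Minus Dox and at 89.6, 84.0 and 90.4 FPKM in Plus Dox libraries (log2 difference -0.70, limma adjusted p = 0.00194). Sdc2 and Sdc4 had log2 differences of -0.25 and -0.25 (limma adjusted p = 0.00939 and 0.00167), and Sdc1 was higher by 0.27 (limma adjusted p = 0.00501), from 147 to 158 FPKM to 182 to 188 FPKM. In each of the 4 genes the libraries of the groups lay apart.

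Enzymes that build and edit heparan sulfate were 21, of which 11 were tested, 2 were higher and 3 were lower. Hs3st1, a 3-O-sulfotransferase, was at 14.3, 14.9 and 13.5 FPKM in Minus Dox and at 26.4, 22.8 and 20.7 FPKM in Plus Dox libraries. Every Plus Dox library lay above every Minus Dox library, and the log2 difference was 0.70 (limma adjusted p = 0.00433). Hs6st1, of a 6-O-sulfotransferase, was higher by 0.30 (limma adjusted p = 0.00519). The 3 genes that fell were Sulf2, which removes 6-O-sulfates outside the cell (log2 difference -0.38, limma adjusted p = 0.00843), Ext1, of the enzyme that extends the chain (-0.30, adjusted p = 0.0103, and 0.0539 in an unmoderated model per gene on log2(FPKM + 1) in place of limma), and Ndst1, which starts its sulfation (-0.24, adjusted p = 0.00890). Hpse, the heparanase that cleaves the chains, was listed at 0 in all libraries.

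Of the 25 adaptors and signal transducers, all 25 were tested, 1 was higher and 5 were lower. Plcg1, a phospholipase that binds the activated receptors, was at 47.3, 42.0 and 55.3 FPKM in Minus Dox and at 32.6, 27.9 and 32.5 FPKM in Plus Dox libraries. Its groups lay apart, with a log2 difference of -0.63 (limma adjusted p = 0.0108, and 0.0729 in an unmoderated model per gene on log2(FPKM + 1) in place of limma). Gab2 (-0.52, limma adjusted p = 0.00917) and Shc1 (-0.28, limma adjusted p = 0.00617), both adaptors, were lower as well, and so was Crkl, which was named after its values were seen. The calls of Cblb, a ubiquitin ligase (-0.28, limma adjusted p = 0.0379), and Braf, a kinase upstream of ERK (0.25, limma adjusted p = 0.0388), lay near the threshold. That of Cblb was lost when any of the 6 libraries was left out (limma adjusted p of 0.0516 to 0.118) and that of Braf when any 1 of 5 was left out, Plus Dox 2 being the exception (0.0648 to 0.126). With all libraries kept and no replicate block, Cblb lost it without the filter (adjusted p = 0.0566, and 0.0571 with rows of 1 symbol also summed) and in the unmoderated model (0.0541). Braf lost it without the filter, whether rows of 1 symbol were summed or not, after quantile normalization, without the trend and in the unmoderated model (adjusted p of 0.0505 to 0.0854). Crkl lost its call without Minus Dox 2 or any 1 Plus Dox library (limma adjusted p of 0.0532 to 0.0753). The list's count of 6 was 3 in the unmoderated model with all libraries kept, and also 3 without Minus Dox 2, Plus Dox 1 or Plus Dox 3.

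Feedback inhibitors and ERK targets moved in both directions. Of 16 genes 15 were tested, 2 were higher and 5 were lower. Spry1, a Sprouty inhibitor of receptor tyrosine kinase signaling, was at 31.9, 27.3 and 31.4 FPKM in Minus Dox and at 61.0, 63.0 and 62.5 FPKM in Plus Dox libraries. The groups lay far apart, and the means were 30.2 and 62.2 FPKM (log2 difference 1.04, standard error 0.07, limma adjusted p = 0.000191). Dusp5, a nuclear ERK phosphatase, was at 6.48 to 7.72 FPKM in Minus Dox and at 10.9 to 11.4 FPKM in Plus Dox libraries (0.65, limma adjusted p = 0.00470).

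Dusp6, a cytoplasmic ERK phosphatase, went the other way, from 139.6 to 145 FPKM without Dox to 97.0 to 107 FPKM with Dox. Its log2 difference was -0.47 (limma adjusted p = 0.000960). Spred3 and Spry2, further inhibitors of the pathway, had log2 differences of -0.28 and -0.27 (limma adjusted p = 0.0321 and 0.0145). Spred3 lost its call when any 1 of 5 libraries was left out, Plus Dox 3 being the exception (limma adjusted p of 0.0782 to 0.102), and with all libraries kept and no replicate block, in the unmoderated model (adjusted p = 0.0666). Spry2 lost it without Minus Dox 3, Plus Dox 1 or Plus Dox 3 (limma adjusted p of 0.0501 to 0.0559). Dusp4 and Ccnd1, named after their values were seen, were the other genes called lower. Dusp4 lost its call when any 1 of 5 libraries was left out, Minus Dox 1 being the exception (limma adjusted p of 0.0849 to 0.11), and with all libraries kept and no replicate block, without the filter (adjusted p = 0.0538, and 0.0542 with rows of 1 symbol also summed) and in the unmoderated model (0.058). Ccnd1 lost its call in limma without the trend (adjusted p = 0.052). The list's count of 7 was 4 without Minus Dox 3 or Plus Dox 1.

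Regulators of receptor exon choice decide whether the epithelial or the mesenchymal splice form is made. Of 13 such genes 10 were tested, 1 was higher and 1 was lower. Esrp2, which favors the epithelial form, was at 4.09, 3.07 and 3.22 FPKM in Minus Dox and at 7.36, 6.72 and 7.72 FPKM in Plus Dox libraries (log2 difference 1.06, limma adjusted p = 0.00402). Rbfox2, a splicing factor that also acts on Fgfr2, was at 57.5 to 59.3 FPKM in Minus Dox and at 43.2 to 45.4 FPKM in Plus Dox libraries (-0.40, limma adjusted p = 0.00128). For both genes the groups lay apart. Esrp1, the paralog of Esrp2, was named after its values were seen. It was under the filter, at 0.0921, 0 and 0 FPKM in Minus Dox and at 0.237, 0.154 and 0.335 FPKM in Plus Dox libraries.

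Among 13 transcription factors that are known to act, or belong to families that act, on the Fgfbp1 promoter, all 13 were tested, 3 were higher and 3 were lower. Cebpa, of the C/EBP family, had the largest difference. It was at 14.6, 12.0 and 11.2 FPKM in Minus Dox and at 4.54, 5.05 and 3.94 FPKM in Plus Dox libraries, with the groups well apart (log2 difference -1.46, limma adjusted p = 0.000846). The AP-1 genes Jun and Fosl1 were lower (-0.50 and -0.41, limma adjusted p = 0.00108 and 0.00183), and Junb and Fos were higher (0.25 and 0.50, limma adjusted p = 0.0186 and 0.0476). Klf5, named after its values were seen, was the third gene called higher. The call of Fos was lost without any 1 of the 6 libraries (limma adjusted p of 0.0674 to 0.152), and that of Junb without Minus Dox 1, Minus Dox 2 or Plus Dox 3 (0.0521 to 0.0635). Klf5 lost its call without Minus Dox 1, Minus Dox 3, Plus Dox 2 or Plus Dox 3 (limma adjusted p of 0.057 to 0.0751). With all libraries kept and no replicate block, Fos lost it without the filter, whether rows of 1 symbol were summed or not, with the filter at 5 FPKM and in the unmoderated model (adjusted p of 0.0592 to 0.0917), and Junb without the trend and in the unmoderated model (adjusted p = 0.0557 and 0.0771). The list's count of 6 was 3 without Minus Dox 1 or Plus Dox 3.

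Matches to the miR-200c seed were found in the 3′ UTRs of 8 of the 22 list genes called lower and 1 of the 10 called higher, and in 19 of the 54 that were tested and not called. Rbfox2 held 2 matches, while Gab2, Sdc2 and Jun held 1 each. The gene called higher that held a match was Hs3st1, with 1. Over all protein-coding genes tested that have a 3′ UTR, 16.9% held a match. Of the 8 genes, Crkl, Cblb, Spred3 and Dusp4 have calls that are lost when single libraries are left out. These genes are a small part of all genes that hold a match. The counts were not tested, and the length of the 3′ UTRs was not taken into account.

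The 5 genes whose values were most like those of Fgfbp1 over the 6 libraries were Epcam, Itgb4, Ccl20, Epha1 and Lypd3. Likeness was the root mean square difference of log2(FPKM + 0.1), each gene less its own Minus Dox mean, and it ran from 0.40 for Epcam to 0.61 for Lypd3. This order holds for a pseudocount of 0.1, and values of genes near 0 depend on it. On log2(FPKM + 1) the log2 differences of Epcam, Itgb4 and Fgfbp1 were 2.16, 2.84 and 3.27. With a pseudocount of 0.01 they were 4.93, 3.14 and 3.75, so Itgb4 was nearer to Fgfbp1 than Epcam in both. Itgb4, which encodes integrin beta 4 of epithelial cells, was at 3.48, 4.45 and 3.48 FPKM in Minus Dox and at 32.8, 35.0 and 32.2 FPKM in Plus Dox libraries, levels close to those of Fgfbp1. Ccl20, a chemokine, was at 0.632 to 1.54 FPKM in Minus Dox and at 9.09 to 13.2 FPKM in Plus Dox libraries. Epcam, an epithelial adhesion molecule, was at 0.0844 to 0.161 FPKM in Minus Dox and at 3.88 to 4.31 FPKM in Plus Dox libraries. Only genes past the filter were compared, and Epcam and Epha1 passed it only through the Plus Dox libraries. Epha1 had means of 0.281 FPKM without Dox and 3.17 FPKM with Dox. A shared pattern over 6 libraries of 2 groups is mostly the difference between the groups.

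**Figure D5:**
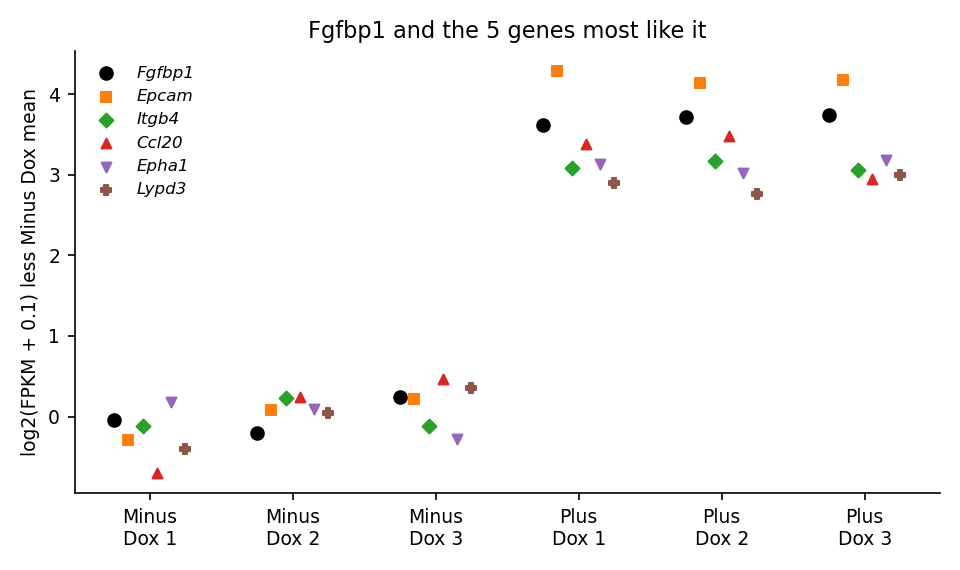
Values of Fgfbp1 and of the 5 genes most like it in each library, as log2(FPKM + 0.1) less the Minus Dox mean of the gene. Points of 1 library are set side by side. With Dox, Fgfbp1 lies between Epcam, with a log2 difference of 4.20, and the other genes, of which Lypd3 has the lowest (2.89). On log2(FPKM + 1), which is not plotted, Epcam (2.16) was below Fgfbp1 (3.27).

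Of the genes next to Fgfbp1 on chromosome 5, 1 had values to compare. Prom1, 11840 bases away on the side of the Fgfbp1 start, was listed at 0 in all 6 libraries, which gives no difference. Gm7879, 64940 bases away on the other side, was at 16.7, 11.9 and 17.7 FPKM in Minus Dox and at 12.2, 17.0 and 15.7 FPKM in Plus Dox libraries. Its groups overlap (log2 difference -0.04, 95% interval -0.46 to 0.39).

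The cell type markers gave the state of the cells in which these values were measured. Of 7 epithelial markers 2 passed the filter, Epcam and Krt18, and both were higher. Epcam, with means of 0.128 FPKM without Dox and 4.06 FPKM with Dox, passed it only through the Plus Dox libraries. A gene so low without Dox could enter the test only by being higher, so the call of Epcam adds no support. Krt18, a keratin, was the most abundant, at 91.2 to 96.4 FPKM in Minus Dox and at 364 to 400.0 FPKM in Plus Dox libraries (log2 difference 2.05, limma adjusted p = 3.61e-06), and Krt19 and Krt5 were listed at 0. The summed FPKM of this list was 91.6 to 97.1 without Dox and 369 to 406 with Dox, and most of it was Krt18. Krt8 and Krt14, named after their values were seen, were under the filter, at most at 0.918 and 0.154 FPKM. The groups of Krt8 did not overlap, and those of Krt14 did. Cdh1, which encodes E-cadherin, was under the filter, at 0.0776, 0.0559 and 0.0419 FPKM in Minus Dox and at 0.554, 0.692 and 1.24 FPKM in Plus Dox libraries.

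Of 7 mesenchymal markers, all 7 were tested and 5 were lower (Zeb1, Zeb2, Vim, Twist1 and Snai1). Vim, the intermediate filament vimentin, was the most abundant marker and was at 3840 to 4055 FPKM in Minus Dox and at 3027 to 3198 FPKM in Plus Dox libraries (log2 difference -0.35, limma adjusted p = 0.000566, and 0.0514 by limma after quantile normalization). The call of Snai1 (-0.28, limma adjusted p = 0.0301) was lost when any 1 of 5 libraries was left out, Minus Dox 1 being the exception (limma adjusted p of 0.0621 to 0.0953), and with all libraries kept and no replicate block, without the trend and in the unmoderated model (adjusted p = 0.0542 and 0.0846). The other 2 markers, Snai2 and Fn1, are named after their values were seen and did not pass. Snai2 was at 2.37, 1.43 and 2.21 FPKM in Minus Dox and at 3.22, 2.34 and 3.13 FPKM in Plus Dox libraries, with overlapping groups (log2 difference 0.53, limma adjusted p = 0.219), and Fn1 had a log2 difference of 0.06 (limma adjusted p = 0.371). The summed FPKM of this list, leaving out Fn1 for its missing values, was 4073 to 4295 without Dox and 3204 to 3370 with Dox. Most of this sum was Vim. The part of these changes in the values of the FGF genes was not tested, and in RNA of whole cultures a change in the share of cells and a change per cell cannot be told apart.

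Markers of other cell types were mostly low. Of 6 fibroblast markers 1 was tested, Pdgfra, at 18.4 to 18.8 FPKM in Minus Dox and at 14.4 to 16.4 FPKM in Plus Dox libraries (log2 difference -0.27, limma adjusted p = 0.0410). That call was lost when any 1 of 5 libraries was left out, Plus Dox 1 being the exception (limma adjusted p of 0.0927 to 0.118), and with all libraries kept and no replicate block, without the filter (adjusted p = 0.0603, and 0.0606 with rows of 1 symbol also summed) and in the unmoderated model (0.0685). Col1a2, named after its values were seen, was under the filter, at 0.0300, 0.244 and 0.0687 FPKM in Minus Dox and at 0.318, 0.609 and 0.506 FPKM in Plus Dox libraries. Its groups did not overlap. The log2 difference from the fit without the filter was 1.52 (95% interval 0.42 to 2.63) and did not pass (limma adjusted p = 0.115). Over the alternatives it ranged from 0.41 to 2.34. Lum was listed at 0, Col1a1 and Dcn were at most at 0.617 and 0.896 FPKM, Thy1 was at most at 0.0507 FPKM, and the list summed to 15.4 to 20.2 FPKM per library. Of 7 immune and endothelial markers Cd68 and Cdh5 were tested and neither passed. Cd68 was at 6.31 to 11.3 FPKM (limma adjusted p = 0.326, and 0.029 without Minus Dox 3) and Cdh5 at 3.95 to 4.66 FPKM, Cd3e and Adgre1 were listed at 0, Ptprc was at most at 0.161 FPKM, and the list summed to 11.0 to 15.6 FPKM per library.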

How the data were processed

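Met-1 TripZ-200c cells were sequenced as 3 libraries per group, prepared with a stranded kit and read as single reads. The authors mapped the reads with gSNAP to the mouse genome (GRCm38.p6, with an FVB/NJ assembly also named in the methods) and deposited the FPKM that Cufflinks estimated for each gene and library. Whether strand was used in counting is not given in the sources used here. The authors' columns of group means, fold scores, p-values and q-values were not used. The members and lists were chosen with earlier results of these data known.

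Of 43611 rows, 63 repeats of an identifier were dropped, and a placeholder in 6 cells of 4 genes was treated as missing. Genes averaging at least 1 FPKM entered a linear model of log2(FPKM + 0.1) on the group, fitted by limma 3.58.1 under R 4.3.3 with lmFit and a trended eBayes, and p-values were adjusted by Benjamini-Hochberg over all genes tested, with a threshold of 0.05. The fit was tested on simulated data. Genes under the filter take their values from the same fit without it. Other pseudocounts, filters, normalizations and variance models, a replicate block, the omission of each library and the sum of rows with 1 symbol were tried.

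The genes named are the members and label checks (Zeb1, Zeb2, Vim, Cdh1, Epcam, Krt18 and the miR-200c gene). From each list came at most 5 genes with the largest change among those past the threshold, and, where fewer than 2 passed, the 2 other genes with the highest mean. Outside this rule, Klb, Kl, Hpse, Krt19, Krt5, Lum, Thy1, Cd3e, Adgre1 and Ptprc are named for values at or near 0, and the genes said to be named after their values were seen. Crb3 and Gm15065 are named for their rank ahead of Fgfbp1, and Nudt6, Ctbp2 and G630022F23Rik for exon bases shared with members. The 5 genes most like Fgfbp1 and its nearest protein-coding neighbours were added. Positions are those of GENCODE M21 on GRCm38, and miRNA and promoter sequences those of RefSeq (GRCm38.p6). The longest transcript of each member was searched with BLAST 2.17.0 against all annotated transcripts for stretches of 50 or more bases with 95% identity. Python 3.11.15 with pandas 2.3.3, numpy 2.4.6 and matplotlib 3.10.9 was used for tables and plots.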

Additional observations from a re-analysis of the deposited data

How the results depend on the processing

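The 10 members kept their direction in the alternatives that could be fitted, except Fgfr2, Fgfr4 and Fgf1 when single libraries were left out. The log2 difference of Fgfbp1 ranged from 3.27 to 3.82 over 16 alternatives, and 3.27 came from a pseudocount of 1, both in limma and in the unmoderated model, since a larger pseudocount shrinks the difference of a gene that is low in 1 group. The count of changed genes, 1935, was 1069 to 1384 with 1 library left out, where fewer samples enter. It was 1266 without Minus Dox 2, 1250 without Plus Dox 1, 1254 without Plus Dox 2 and 1069 without Plus Dox 3. With all libraries kept, the count also depended on the variance model, at 1495 in limma without the trend and 1290 in the unmoderated model. The 909 genes called higher were 598 in the unmoderated model, which takes the variance of a gene from its 6 values alone, and 479 to 596 without Minus Dox 2 or any 1 Plus Dox library. The 1026 called lower were 590 to 672 without Minus Dox 2, Minus Dox 3, Plus Dox 1 or Plus Dox 3. The pathway list count of 32 was 24 to 32 in the alternatives run for it, which leave out the sum of rows with 1 symbol. The Fgfr3 share difference of -1.33 percentage points was between -1.56 and -1.19.

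Same-numbered libraries of the groups had correlations of 0.0287, 0.0359 and -0.00759 in their deviations over the genes that passed the filter. Pairs of unlike number had -0.0511 to 0.0235. Whether same-numbered libraries shared a plating or a batch cannot be told from these values, since the labels give only a number. With the replicate number as a block, 1337 genes and 25 list genes passed (3 of the 6 adaptors and transducers). Among the named genes called, Cblb, Braf, Spred3, Fos, Snai1, Pdgfra, Crkl, Dusp4 and Klf5 did not pass in that fit (adjusted p of 0.0531 to 0.093). Of 44 list genes, label checks and genes like Fgfbp1 that were called, 29 kept the call in every alternative that gave them a value, and none of the 44 changed direction. Genes under 5 FPKM, Epcam and Epha1 among them, had no value under the filter of 5 FPKM. The groups of Fgfr2, Fgfr4, Fgf2 and Fgf7, under 1 FPKM on average, overlap, and the part of depth in their spread was not tested.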

Other observations

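Fgf1 and Fgfr2 were both highest in the second library of each group, a pattern chosen after the values were seen. Fgf1 was at 3.16 and 2.53 FPKM in these libraries and Fgfr2 at 0.685 and 0.676 FPKM, and the other libraries were at most at 1.10 and 0.479 FPKM. These libraries had relative depths of 0.921 and 1.49.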
